A study of Mus musculus with 4 samples.

Results

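The proteasome subunit genes described here are all genes of the deposited matrices whose symbol begins with Psma, Psmb, Psmc, Psmd, Psme or Psmg followed by a digit, without pseudogenes. The rule used the symbol alone and found 49 of 32285 genes. They comprise 7 alpha ring genes, 4 non-catalytic beta genes, the 3 constitutive catalytic genes Psmb5, Psmb6 and Psmb7, the 3 immunoproteasome genes Psmb8, Psmb9 and Psmb10, 6 ATPases of the base, 11 other subunits of the regulatory particle, 3 chaperones of base assembly, 5 activator genes and 4 chaperones of core assembly. The remaining 3 are Psma8 and Psmb11, whose known sites are the testis and the thymus, and Psmc3ip, which the symbol rule takes in although its product acts in homologous recombination and is no proteasome subunit.

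The proteasome degrades proteins tagged with ubiquitin. Its core is a barrel of alpha and beta rings whose catalytic beta subunits cut the substrate, and a regulatory particle of ATPases and other subunits binds, unfolds and threads it. Interferon and the lymphoid lineage favour replacement of the constitutive catalytic subunits by the immunoproteasome subunits, and the activator PA28, made of the products of Psme1 and Psme2, caps the core; both shape the peptides displayed on MHC class I.

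Single-cell 5′ RNA libraries were made from splenic B cells and from splenic CD4+ T cells of C57BL/6NRj mice, 1 library for each. Every library mixed 4 populations marked with hashtag antibodies: Il2rb KO mice on day 4 after intraperitoneal sheep red blood cells, Cre control mice on day 4, unimmunized (day 0) KO mice, and unimmunized control mice. KO mice carry Il2rbfl/fl and a Cre active in B cells, so T cells keep the gene; the genotype field holds the same text for KO and control, so genotype was read from the hashtag text, which calls the controls Cre. Cells were isolated magnetically, the T cells with what the labels describe as a naive CD4+ T cell product, and the sources used here do not give the number of mice in a pool. With 1 pool per group there is no spread between replicates and hence no test, and the 95% intervals given cover counting error alone.

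Il2rb, the beta chain of the interleukin-2 and interleukin-15 receptors, had 4 unique molecular identifiers (UMIs) in KO day 4, 9 in control day 4, and 0 in both KO day 0 and control day 0 B lineage cells. At 0.295 CPM (UMIs scaled to a common total) in KO day 4 and 0.884 CPM in control day 4 it was too low in B cells to check the genotype labels, and 5′ reads may lie outside the deleted part. In T lineage cells, where deletion is not driven, it stood at 103, 114, 74.5 and 91.3 CPM in KO day 4, control day 4, KO day 0 and control day 0. In the same order of pools, lineage cells numbered 1866, 1305, 978 and 1090 (B) and 3214, 1895, 1268 and 931 (T), with median depths of 4637 to 6108 UMIs in B and 4512 to 5541 UMIs in T cells. Of the cell barcodes, 84 occurred in both libraries. Cd3e in B lineage cells and Ms4a1 and Cd79a in T lineage cells had 0 UMIs, as the gates require, whereas the hemoglobin gene Hbb-bs reached 449 CPM in KO day 4 B cells, 464 CPM in control day 4 T cells and 1163 CPM in KO day 0 T cells, against under 4 CPM in the other pools. A part of erythroid RNA in the results below was not tested.

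Of the 49 genes, 47 had at least 100 UMIs over both lineages. Since 5′ reads count each transcript once, CPM values are compared between genes without a length correction. Psmb8 and Psme1 were the most abundant, at 467 and 428 CPM in all B lineage cells and 451 and 458 CPM in all T lineage cells. Psmb8 was thus above its constitutive counterpart Psmb5, at 135 CPM in B and 136 CPM in T lineage cells. Psmb9 stood at 218 CPM in B and 230 CPM in T cells, against 140 and 123 CPM for its counterpart Psmb6, and Psmb10 at 130 and 132 CPM, against 62.7 and 57.2 CPM for Psmb7. In both lineages each immunoproteasome gene exceeded the constitutive gene it replaces. At the low end, Psma8 had 2 UMIs in B and 1 in T lineage cells and Psmb11 had 0 and 2, so neither entered a comparison. Psme2b, at 16.7 CPM in B and 21.2 CPM in T cells, is a near copy of Psme2, and how reads were divided between them is uncertain.

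The genes lie on 16 chromosomes. On mm10, Psmb9 (chromosome 17, 34181987 to 34187764, minus strand) and Psmb8 (34197721 to 34201454, plus strand) lie 9956 bases apart, and Psme1 and Psme2 lie 5911 bases apart on chromosome 14. Promoter windows of 300 bases around the transcription start were found for 41 of the 49 genes in RefSeq (GRCm38.p6). Those of Psmb8 and Psmb9 lie inside the gene spans given above, so sequence upstream of these spans was not searched. Printed here are those of Psme1 and Psmb8, the most abundant genes and each the holder of an interferon-type motif, and of Psma3 and Psmd14. Psma3, a core gene, was among those that followed the other members most closely across subsets (r = 0.95). Psmd14, a regulatory particle gene, had a ratio of 2.58 in germinal center over follicular B cells. Both windows held 3 CCAAT matches. Capitals mark motif matches on either strand. They are the interferon-stimulated response element (GAAA, any 2 bases, GAAA) in Psme1, TTCNNNGAA (the gamma-activated site) and TGANNNNGC (the antioxidant response element) in Psmb8, and CCAAT in Psma3 and Psmd14, where 2 of the 3 Psmd14 matches overlap. All windows are on the plus strand, at chr14:55578244-55578543 for Psme1, chr17:34197945-34198244 for Psmb8, chr12:70974373-70974672 for Psma3 and chr2:61711444-61711743 for Psmd14.
Psme1: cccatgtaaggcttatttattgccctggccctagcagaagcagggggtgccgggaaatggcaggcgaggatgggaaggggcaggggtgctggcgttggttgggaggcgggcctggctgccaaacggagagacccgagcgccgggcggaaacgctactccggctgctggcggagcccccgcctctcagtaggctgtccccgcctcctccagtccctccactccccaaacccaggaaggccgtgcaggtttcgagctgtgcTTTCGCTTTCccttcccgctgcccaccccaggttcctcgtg
Psmb8: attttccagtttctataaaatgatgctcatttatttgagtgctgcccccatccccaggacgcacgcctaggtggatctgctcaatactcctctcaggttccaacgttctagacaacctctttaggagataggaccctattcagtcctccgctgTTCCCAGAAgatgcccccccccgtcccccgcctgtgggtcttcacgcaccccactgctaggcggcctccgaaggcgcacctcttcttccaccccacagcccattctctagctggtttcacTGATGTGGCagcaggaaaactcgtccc
Psma3: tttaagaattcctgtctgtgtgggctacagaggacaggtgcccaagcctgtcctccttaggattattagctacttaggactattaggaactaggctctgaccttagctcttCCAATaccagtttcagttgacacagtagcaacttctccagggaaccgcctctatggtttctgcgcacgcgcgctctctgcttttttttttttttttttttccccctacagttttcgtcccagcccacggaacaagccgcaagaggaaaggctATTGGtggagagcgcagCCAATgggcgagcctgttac
Psmd14: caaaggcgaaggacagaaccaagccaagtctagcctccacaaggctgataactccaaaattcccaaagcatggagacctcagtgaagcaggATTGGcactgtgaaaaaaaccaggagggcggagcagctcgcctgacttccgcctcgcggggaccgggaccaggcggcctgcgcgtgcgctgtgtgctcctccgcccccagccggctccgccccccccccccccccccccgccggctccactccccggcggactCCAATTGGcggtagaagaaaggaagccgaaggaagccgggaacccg

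The motifs were also common among other genes. CCAAT was found for 10 of 25 alpha, non-catalytic beta, constitutive catalytic, ATPase and other regulatory particle genes with a window, and in 37.4% of all 32817 windows of that length. TGANNNNGC was found for 14 of the same 25 genes, and in 41.3% of all windows. Among the windows of the 5 immunoproteasome and PA28 genes, that of Psme1 alone held the interferon-stimulated response element, which occurs in 3.43% of windows. That of Psmb8 alone held TTCNNNGAA, which occurs in 8.29%. A motif outside the windows would not be seen. Among the 25 core and regulatory particle genes these motifs were found for 2 and for 1. A match is a string of letters and not a shown binding site.

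Cells were sorted into subsets by marker genes, none of which is a proteasome gene; each cell went to the first gate that it passed. Germinal center B cells needed 2 of 6 germinal center genes, dividing cells 3 of 8 mitotic genes, follicular helper T cells 2 of 5 helper genes, and follicular B and naive T cells served as the comparison. Marker genes kept out of the gates were higher in each subset wherever they were measured, although those of naive T and Myc-gated cells stayed under 2-fold and 1 of 4 exceeded it in follicular B cells. All B subset ratios share the follicular cells, and all T subset ratios the naive cells. The summed level of the 49 genes ran from 4311 to 8356 CPM over subsets and pools with at least 20 cells. It was 8065 CPM (7796 to 8340) in 21 KO day 4 and 8356 CPM (8079 to 8640) in 20 control day 4 germinal center B cells, against 4854 and 4711 CPM in follicular B cells of the same pools. Dividing T cells reached 7972 CPM in KO day 4 and 7688 CPM in control day 4, and follicular helper T cells 7006 and 6971 CPM, against 4759 and 4524 CPM in naive T cells. Dividing B cells had 7505 and 7756 CPM in these pools, and plasma-gated B cells 7271 CPM in control day 4. Next came effector or memory, regulatory, innate-like and interferon-gated T cells and Myc-gated, activated and interferon-gated B cells, from 5078 to 6426 CPM over pools. Naive T cells, from 4395 to 4759 CPM over 4 pools, and marginal zone B cells, from 4311 to 4567 CPM, were at the bottom and overlapped each other. Intervals of the 2 pools overlapped within germinal center B cells, and so did germinal center B and dividing T cells, so these were not separated by level.

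**Figure D1:**
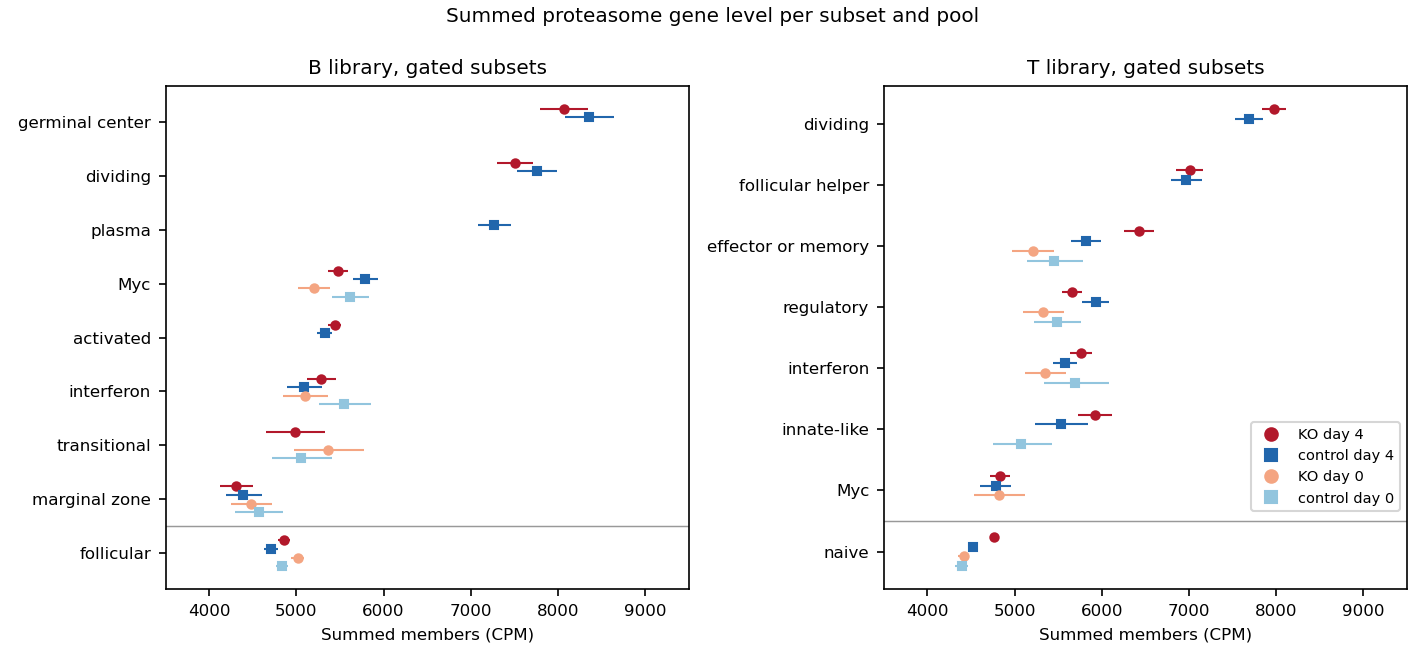
Summed CPM of the 49 proteasome genes (horizontal axis) in each marker-gated subset (rows) of the B and T libraries, with 1 point per hashtag pool of at least 20 cells and 95% Poisson intervals. Germinal center B cells and dividing T cells lie between 7688 and 8356 CPM, and follicular B, marginal zone B and naive T cells between 4311 and 5014 CPM.

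Germinal center B cells, the antibody-mutating B cells of an immune response, had 8210 CPM of proteasome genes against 4783 CPM in follicular B cells as the mean over both day 4 pools, a ratio of 1.72 (KO and control pools 1.66 and 1.77). A gene was called higher at a log2 ratio of at least 0.32, or lower at the inverse ratio of 0.8 or less, with at least 100 UMIs over both subsets. Of 46 members with that count, 40 were called higher and 2 lower, where 35.7% of all genes were called higher and 33.2% lower. A call did not require an interval that excludes 1. Among those called higher, the intervals of Psmd5 (1.36, 0.939 to 1.90), Psmd9 (1.32, 0.897 to 1.92) and Psmd10 (1.30, 0.854 to 1.89) include it. The median log2 ratio was 0.88 over members and 0.04 over all genes. All 7 alpha ring, 4 non-catalytic beta, 3 constitutive catalytic, 6 ATPase and 11 other regulatory particle genes were called higher.

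Among the core genes, Psmb7, the constitutive trypsin-like subunit, was at 112 CPM in KO day 4 and 148 CPM in control day 4 germinal center B cells, against 52.7 and 44.6 CPM in follicular cells of the same pools. Its ratio of 2.67 (2.10 to 3.27) was the highest of the members with 100 UMIs. Psmd14, the deubiquitinase of the lid, followed at 159 and 175 CPM, against 67.0 and 62.1 CPM, a ratio of 2.58 (2.11 to 3.11). In both genes every germinal center value lay above every follicular value. Psmd6, another lid subunit, was at 85.4 and 155 CPM, against 50.5 and 46.3 CPM (ratio 2.49, 1.95 to 3.08), and the alpha ring gene Psma7 at 401 and 427 CPM, against 170.5 and 169.8 CPM (ratio 2.43, 2.15 to 2.74). Psmb5, the chymotrypsin-like subunit and target of bortezomib, had 230 and 228 CPM, against 120 and 116 CPM, a ratio of 1.94 (1.64 to 2.27), and Psmb6, the caspase-like subunit, a ratio of 1.73 (1.46 to 2.03).

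The immunoproteasome genes differed among themselves. Psmb8 had 693 CPM in KO day 4 and 616 CPM in control day 4 germinal center B cells, against 461 and 437 CPM in follicular cells, a ratio of 1.46 (1.32 to 1.59). Psmb9 had 330 and 357 CPM, against 204 and 188 CPM, a ratio of 1.750 (1.52 to 1.97). Psmb10, the immunoproteasome counterpart of Psmb7, had 121 and 112 CPM, against 132 and 130 CPM. Its germinal center values lay below both follicular values, at a ratio of 0.888 (0.713 to 1.10) that was not called and whose interval includes 1. As sums, the 3 constitutive catalytic genes had a ratio of 1.97 (1.77 to 2.17) and the 3 immunoproteasome genes one of 1.44 (1.33 to 1.53).

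The PA28 genes had lower ratios than most of the core. Psme1, its alpha subunit, was at 455 CPM in KO day 4 and 391 CPM in control day 4 germinal center B cells, against 418 and 406 CPM, a ratio of 1.03 (0.915 to 1.14) with overlapping values. Psme2, its beta subunit, was at 318 and 311 CPM, against 218 and 210 CPM, and was called higher at 1.47 (1.28 to 1.67). Psme3, which encodes the nuclear activator PA28 gamma, and Psme4, which encodes the activator PA200, had ratios of 1.17 (0.885 to 1.56) and 0.930 (0.597 to 1.40). The members called lower were Psmg4, a core assembly chaperone, at 0.759 with an interval of 0.529 to 1.06, and Psme2b with 5 UMIs in germinal center cells. Psmc3ip had a ratio of 10.1, with fewer than 100 UMIs.

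Of the other genes of proteasome biology, 12 of 17 were called higher and 2 lower in germinal center B cells. Pomp, the chaperone that matures the core, averaged 298 CPM, against 134 CPM in follicular B cells (ratio 2.23, 1.91 to 2.54). Uchl5 and Usp14, deubiquitinases of the regulatory particle, had ratios of 3.12 and 2.44, and the unfolding ATPase Vcp one of 2.19. Nfe2l1 and Nfe2l2, transcription factors that act on proteasome genes, were the pair called lower, at 0.670 and 0.612. Of 7 genes that work beside the immunoproteasome in peptide loading or in its induction, 6 were called lower, among them Tapbp at 0.433, Irf1 at 0.517 and B2m at 0.694. Both lists are to be read beside the shares of all genes called higher and lower given above for this comparison. Psmb9 and Psme2 were therefore called higher in the same cells in which Tap1, the peptide transporter, stood at 0.788.

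**Figure D2:**
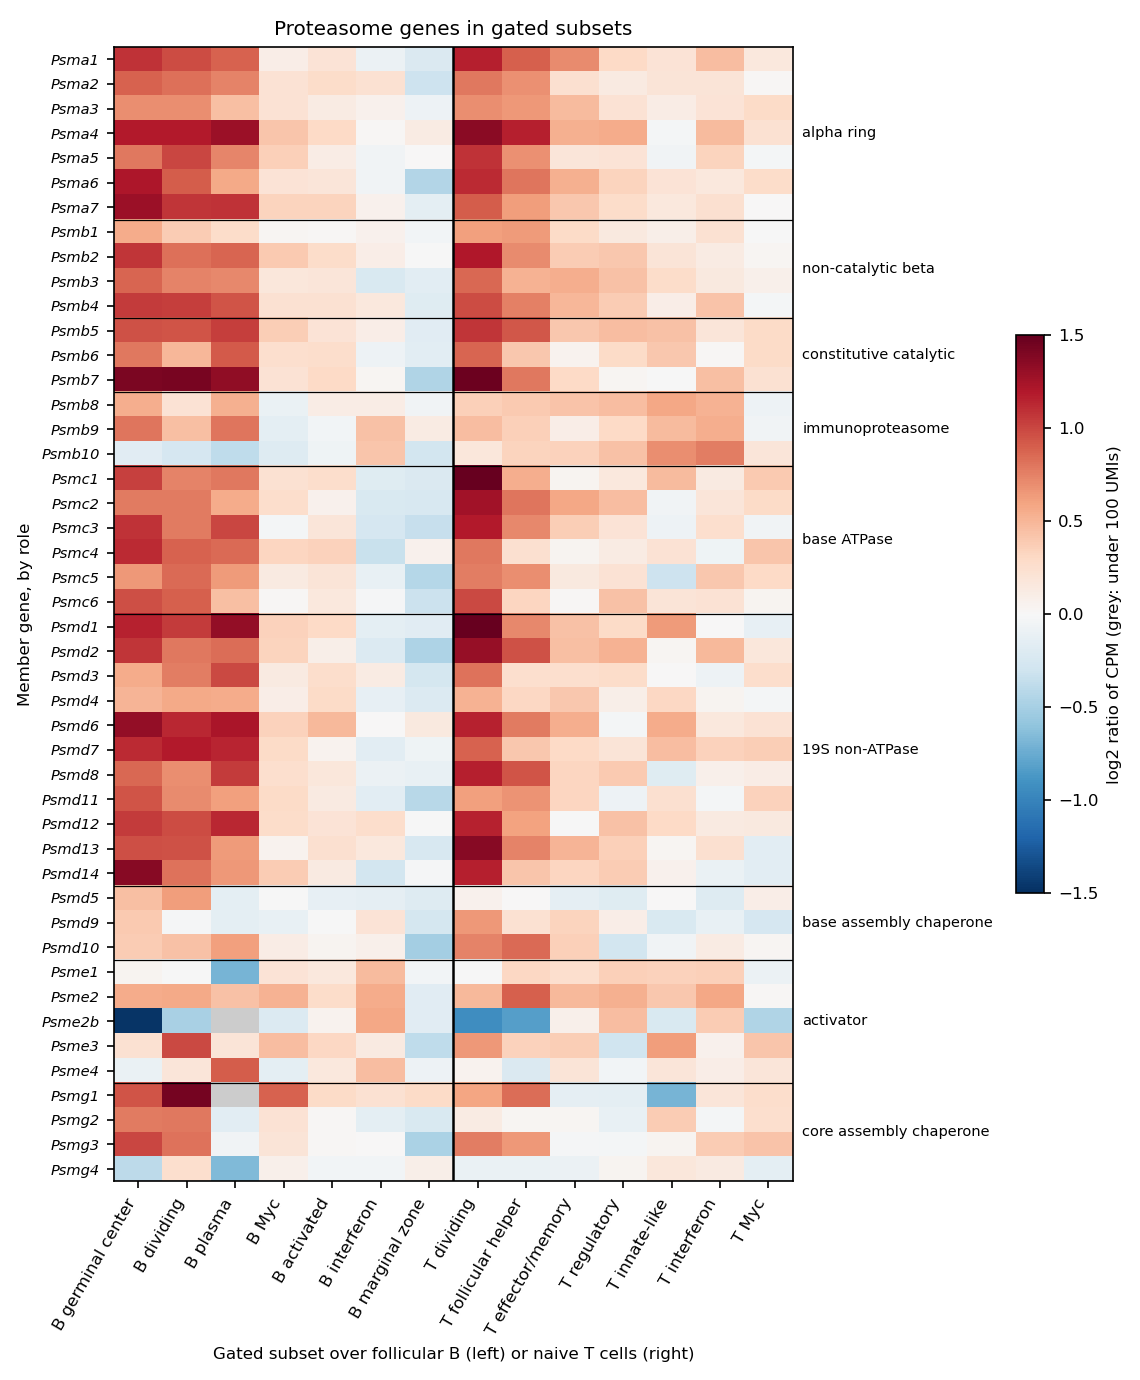
Log2 ratio of 46 proteasome genes (rows, by role; Psma8, Psmb11 and Psmc3ip left out) in each subset over follicular B or naive T cells (columns), averaged over pools with at least 20 cells. The rows of the core and regulatory particle are highest in germinal center, dividing and plasma-gated cells, whereas Psmb10 is highest in interferon-gated and innate-like T cells and Psme1 in interferon-gated B cells.

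Dividing T cells had 7830 CPM of proteasome genes against 4642 CPM in naive T cells, a ratio of 1.69 (pools 1.67 and 1.70). Of 47 members, 40 were called higher and 1 lower, where 41.7% of all genes were called higher and 26.4% lower, and the median log2 ratio was 0.87 over members against 0.16 over all genes. Psmd1, the scaffold subunit of the base, was at 110 CPM in KO day 4 and 133 CPM in control day 4 dividing cells, against 38.6 and 41.3 CPM in naive cells, a ratio of 3.04 (2.63 to 3.44). The ATPase gene Psmc1 was at 115 and 143 CPM, against 44.7 and 43.9 CPM (2.91, 2.50 to 3.24). In both genes the subsets did not overlap. Psmc3ip, at 20.6 and 15.0 CPM against 3.19 and 4.46 CPM, had the highest ratio, 4.65 (3.39 to 7.43), from 51 and 60 UMIs.

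Of the catalytic genes, the constitutive Psmb7, Psmb5 and Psmb6 stood at 2.78, 2.10 and 1.83 times their naive levels. The immunoproteasome genes stood at 1.38 for Psmb9, 1.28 for Psmb8 and 1.12 for Psmb10, the last not called. The sums gave 2.11 (1.995 to 2.24) for the constitutive and 1.28 (1.23 to 1.33) for the immunoproteasome genes, so these intervals did not overlap. Psme1 had 448 CPM in KO day 4 and 408 CPM in control day 4 dividing cells, against 442 and 417 CPM in naive cells, a ratio of 0.997 (0.937 to 1.06). Psme2 was at 545 and 466 CPM, against 374 and 345 CPM, and was called higher at 1.41 (1.33 to 1.495), as was Psme3 at 1.56. Psme4, at 1.04, and Psmg4, at 0.932, were not called, and Psme2b was lower at 0.526. Pomp averaged 366 CPM, against 139 CPM in naive cells. Of the pathway list, 12 of 17 genes were higher and 1, Nfe2l2 at 0.554, lower, beside the shares of all genes given above for dividing T cells.

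Over the 46 members with enough UMIs in both comparisons, the log2 ratios of germinal center over follicular B cells and of dividing over naive T cells had a Pearson correlation of 0.85, as a description of 2 libraries with no cells in common. The genes called higher in both numbered 38, of 40 called in germinal center B cells and 39 in dividing T cells. Neither the correlation nor this overlap was set against all genes, so they do not set the family apart. Many germinal center cells were themselves in division, with 36 of 54 (66.7%) also passing the gate for dividing cells, and the part of division in the germinal center values was not tested.

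**Figure D3:**
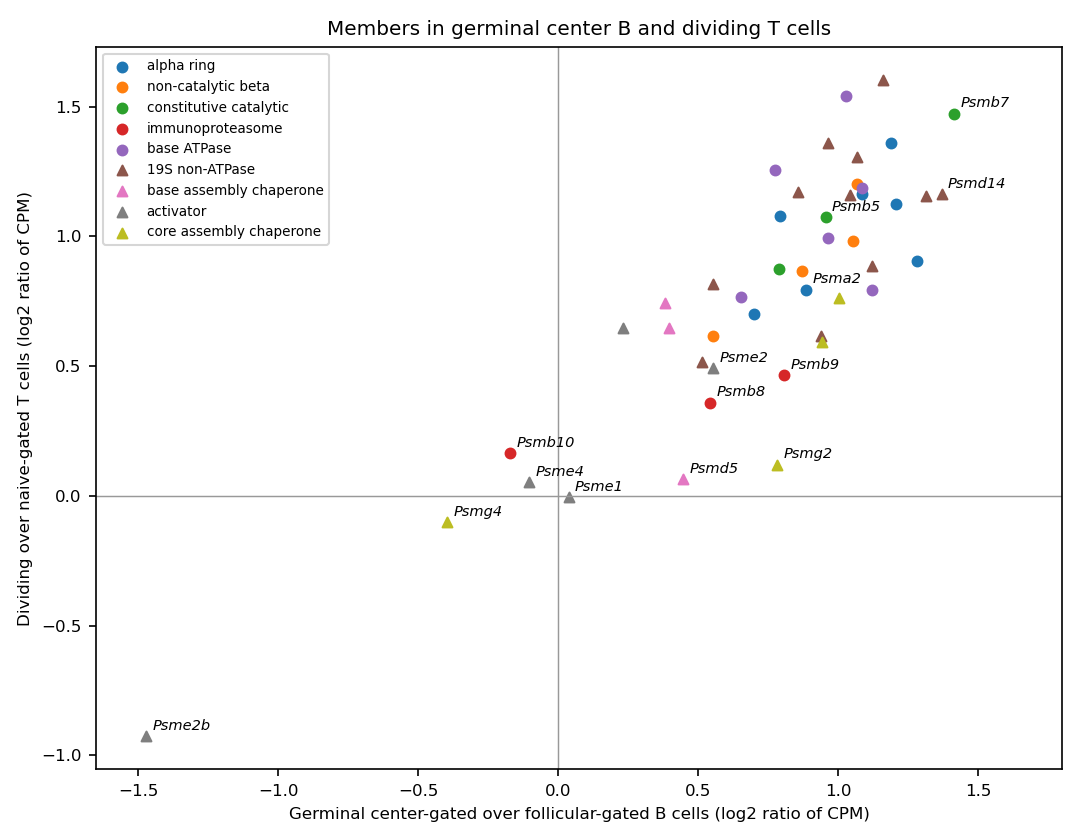
Log2 ratio of each proteasome gene in germinal center over follicular B cells (horizontal axis) and in dividing over naive T cells (vertical axis), colored by role, for the 46 members with at least 100 UMIs in both comparisons. Core and regulatory particle genes gather at the upper right, while Psme1, Psmb10 and Psmg4 lie between −0.40 and 0.17 on both axes and Psme2b at the lower left.

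Follicular helper T cells, which help B cells in the germinal center, had 6988 CPM against 4642 CPM in naive T cells, a ratio of 1.51 (pools 1.47 and 1.54). In this comparison 35 of 46 members were called higher and 1 lower, where 41.6% of all genes were called higher and 19% lower, and the median log2 ratio was 0.64 over members against 0.21 over all genes. The summed ratio of the PA28 genes was 1.52, against 1.69 for the alpha ring and 1.64 for the constitutive catalytic genes. Psme2 was at 704 CPM in KO day 4 and 637 CPM in control day 4 helper cells, against 374 and 345 CPM in naive cells (1.86, 1.748 to 1.97), and Psme1 at 542 and 523 CPM, against 442 and 417 CPM (1.24, 1.15 to 1.31). The helper and naive values did not overlap for either gene, although Psme1 was just under the ratio that counts as called. The highest ratios were those of the alpha ring gene Psma4, at 196 and 225 CPM against 96.7 and 90.5 CPM (2.25, 1.98 to 2.46), of the base scaffold gene Psmd2 at 1.94 and of the lid gene Psmd8 at 1.92. Psmb5 had a ratio of 1.90, Psmb7 of 1.73, Psmb6 of 1.32, Psmb8 of 1.31, Psmb9 of 1.28 and Psmb10 of 1.26, and all 6 were called higher. Psme3 was called at 1.27, while Psme4 and Psmg4 stood at 0.859 and 0.936 and Psme2b was called lower at 0.566. Pomp had a ratio of 2.47, and Uchl5, the deubiquitinase that was higher in germinal center B cells, was called lower at 0.710.

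These subsets held deeper cells than their comparison cells. Median depth was 17308 UMIs in germinal center B, 16987 in dividing T and 9226 in follicular helper T cells, against 4924 UMIs in follicular B and 5107 in naive T cells. Against the tenth of follicular or naive cells with the most UMIs, at medians of 10072 and 9200 UMIs, the ratios were 1.66 for germinal center B, 1.62 for dividing T and 1.45 for follicular helper T cells; this comparison was chosen after seeing the data. The subset cells in these ratios, from day 4 pools, had medians of 18249, 17177.5 and 9854.5 UMIs in the same order, so depth was not matched. The share of each cell's UMIs from proteasome genes was taken over all pools, without selection by depth. Its median was 0.797% in germinal center B, 0.761% in dividing T and 0.661% in follicular helper T cells, against 0.467% in follicular B and 0.447% in naive T cells. The upper quartile of the comparison cells was exceeded by 48 of 54 germinal center cells, 136 of 151 dividing T cells and 165 of 220 helper cells.

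Dividing B cells outside the germinal center gate had 7630 CPM against 4783 CPM in follicular B cells, a ratio of 1.60, with 39 of 46 members called higher and 1 lower, where 30.8% of all genes were higher and 36% lower. The highest were the core chaperone gene Psmg1 at 2.71, Psmb7 at 2.67 and the lid gene Psmd7 at 2.29, and Psmb10 was again under 1, at 0.840. Plasma-gated cells, the antibody secretors, reached 7271 CPM in control day 4, the only pool with 20 of them, against 4711 CPM in follicular cells, and 35 of 44 members were called higher and 3 lower, where 24.3% of all genes were higher and 56.8% lower. Psme1 was called lower, at 251 CPM in plasma-gated cells against 406 CPM in follicular B cells (0.619, 0.528 to 0.722), as were Psmb10 at 0.771 and Psmg4 at 0.634, while Psmb7 stood at 2.52. The pools with fewer plasma-gated cells stood at 6626 CPM (KO day 4, 11 cells), 3165 CPM (KO day 0, 6 cells) and 2813 CPM (control day 0, 6 cells). Over the 43 plasma-gated cells of all pools, the median proteasome share was 0.317%, below the follicular median, and 12 exceeded the follicular upper quartile. Of these 43 cells, 14 (32.6%) also passed the gate for dividing cells, whose part in the plasma values was not tested.

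Myc- and Samsn1-gated B cells came closer to follicular B cells. Myc-gated B cells, with at least 2 UMIs of this growth factor-induced transcription factor, had 5521 CPM against 4853 CPM, a ratio of 1.14, with 13 of 46 members called higher and 0 lower, where 15% of all genes were higher and 19% lower. Psmg1 led at 39.2 CPM against 21.2 CPM (1.85), between 1.66 and 1.94 in the 4 pools. The activators Psme2 and Psme3 were at 1.43 and 1.38 and Psmb5 at 1.29, whereas Psmb8, Psmb9 and Psmb10 were at 0.934, 0.904 and 0.877. The immunoproteasome sum was below follicular cells in each of the 4 pools, at 0.865 to 0.936 of their level. Activated B cells, gated on Samsn1, had a ratio of 1.13. The 3 members called higher were Psmd6 at 1.41, Psmc4 at 1.28 and Psma7 at 1.26. Of all genes, 9.15% were higher and 13.1% lower, so the share of members called higher was below the background share. The sum of the immunoproteasome genes was 1.03 and that of the constitutive catalytic genes 1.19.

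Marginal zone B cells, the resident cells that face blood-borne antigen, were below follicular cells, at 4438 CPM against 4853 CPM. No member was called higher and 9 were called lower, where 13.1% of all genes were higher and 27.3% lower. Psmd10 was lowest at 0.701, followed by Psmg3 at 0.723, Psmd2 at 0.725 and Psmb7 at 0.731. Psmg1 was highest, at 1.22. A share of 9 among 46 members is below the background share, so the count does not set the family apart.

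Interferon-gated cells were those with at least 3 of 8 interferon-stimulated genes. In B cells the sum was 5258 CPM against 4853 CPM in follicular cells (1.08), and 6 of 46 members were called higher and 1 lower, where 12.3% of all genes were called higher and 17% lower. The share of members called higher was near the background share, so the count does not set the family apart. The 6 were the activators Psme2, Psme2b, Psme1 and Psme4 and the immunoproteasome genes Psmb9 and Psmb10. Psme1 was at 557, 581, 515 and 602 CPM in interferon-gated B cells of KO day 4, control day 4, KO day 0 and control day 0, against 418, 406, 430 and 373 CPM in follicular cells, a ratio of 1.38. Psmb9 was at 275, 273, 301 and 270 CPM, against 204, 188, 220 and 211 CPM, a ratio of 1.36. For both genes all 4 interferon-gated pools lay above all 4 follicular pools. Psmb8, already the most abundant member, stood at 1.08, Psmb5 at 1.07, Psmb7 at 1.02 and Psmb6 at 0.952, and the ATPase gene Psmc4 was called lower at 0.795.

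Interferon-gated T cells had 5596 CPM against 4523 CPM in naive T cells (1.24), with 15 of 46 members called higher and 0 lower, where 19.8% of all genes were higher and 15% lower. Here all 3 immunoproteasome genes were called. Psmb10 was at 170, 189, 175 and 265 CPM in interferon-gated T cells of KO day 4, control day 4, KO day 0 and control day 0, against 120, 112, 118 and 119 CPM in naive T cells, a ratio of 1.70. Every interferon-gated value lay above every naive value, with ratios of 1.41 to 2.23 over pools. Psmb8 was at 548, 626, 476 and 600 CPM, against 417, 385, 394 and 373 CPM, a ratio of 1.43, and Psmb9 had a ratio of 1.45. Psme2 was at 1.49 and Psme1 at 1.28, while Psmb5 was at 1.14 and Psmb6 at 1.01, not called, and Psmb7 at 1.37. The 7 neighbouring genes of peptide loading and interferon response were all called higher, among them Tapbp at 1.72 and Tap1 at 1.59; in interferon-gated B cells 4 of them were, with Tap1 at 1.51.

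Innate-like T cells had an immunoproteasome sum of 1.49 times the naive level (pools 1.35 to 1.61), with Psmb10 at 1.62, Psmb8 at 1.496 and Psmb9 at 1.39, all 3 called. There 13 members were called higher and 1, Psmg1 at 0.615, lower, where 36.4% of all genes were higher and 18% lower. The share of members called higher was thus below that of all genes. Regulatory T cells, gated on Foxp3, had 18 members higher and 0 lower, where 29.9% were higher and 11.6% lower, led by Psma4 at 1.47, Psme2 at 1.45 and Psmd2 at 1.44. There Psmb8 at 1.37 and Psmb10 at 1.36 were called and Psmb9 at 1.23 was not. Effector or memory T cells had 24 higher and 0 lower, where 40.7% were higher and 12.6% lower, led by Psma1 at 1.63, Psmc2 at 1.499 and Psmd6 at 1.46, and there Psmb8 at 1.34 and Psmb10 at 1.27 were called and Psmb9 at 1.08 was not. The median log2 ratio of members was 0.27 in regulatory and 0.33 in effector or memory T cells, against 0.14 and 0.23 over all genes. Myc-gated T cells were at 1.05 with 6 higher and 1 lower, where 13.1% were higher and 18.4% lower, and transitional B cells at 1.05 with 6 higher and 7 lower, where 26.6% were higher and 19.8% lower. The share of members called higher was near the background in Myc-gated T cells and below it in transitional B cells.

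The ratio of immunoproteasome to constitutive catalytic UMIs put these differences on a scale that does not depend on total UMIs. It averaged 1.95 (1.84 and 2.07 in the 2 pools) in germinal center B cells, 1.70 (1.52 and 1.88) in dividing B cells, 2.03 (1.70 to 2.31 over 4 pools) in Myc-gated B cells and 3.21 (2.93 to 3.85) in interferon-gated B cells, against 2.68 (2.64 to 2.74) in follicular B cells. In T cells it was 1.60 (1.58 and 1.61) in dividing, 2.08 (1.99 and 2.17) in follicular helper and 3.72 (2.73 to 5.05) in interferon-gated cells, against 2.75 (2.59 to 2.93) in naive cells. Marginal zone B cells, at 3.02 (2.70 to 3.20), and innate-like T cells, at 3.19 (2.71 to 3.77), were near interferon-gated B cells. Pools of both overlapped those of their comparison subset. Among pools with at least 20 cells, those of germinal center, dividing, Myc-gated and helper cells lay below all pools of their comparison subset. Interferon-gated B pools lay above, while interferon-gated T cells overlapped naive cells. Of the smaller pools, control day 0 dividing T cells (4 cells) stood at 3.19, above naive cells. KO day 0 germinal center B cells (13 cells) stood at 2.62, close to follicular cells, and the other small pools of these subsets lay below their comparison. In pools with at least 20 cells, activated (2.28 and 2.40), transitional (1.89 to 2.28) and plasma-gated B cells (1.84) also lay below all follicular pools. Of their smaller pools, control day 4 transitional B cells (16 cells) stood at 3.46 and control day 0 plasma-gated cells (6 cells) at 3.48, above follicular cells. The pairs did not contribute equally. Psmb10 over Psmb7 was 0.920 in germinal center B and 0.982 in dividing T cells, against 2.59 in follicular B and 2.53 in naive T cells. The pools lay on both sides of 1, at 1.09 in KO day 4 and 0.754 in control day 4 germinal center B cells and at 1.07 in KO day 4 and 0.897 in control day 4 dividing T cells. Psmb9 over Psmb6 was 1.62 in germinal center and 1.64 in follicular B cells, and Psmb8 over Psmb5 2.86 and 3.85.

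**Figure D4:**
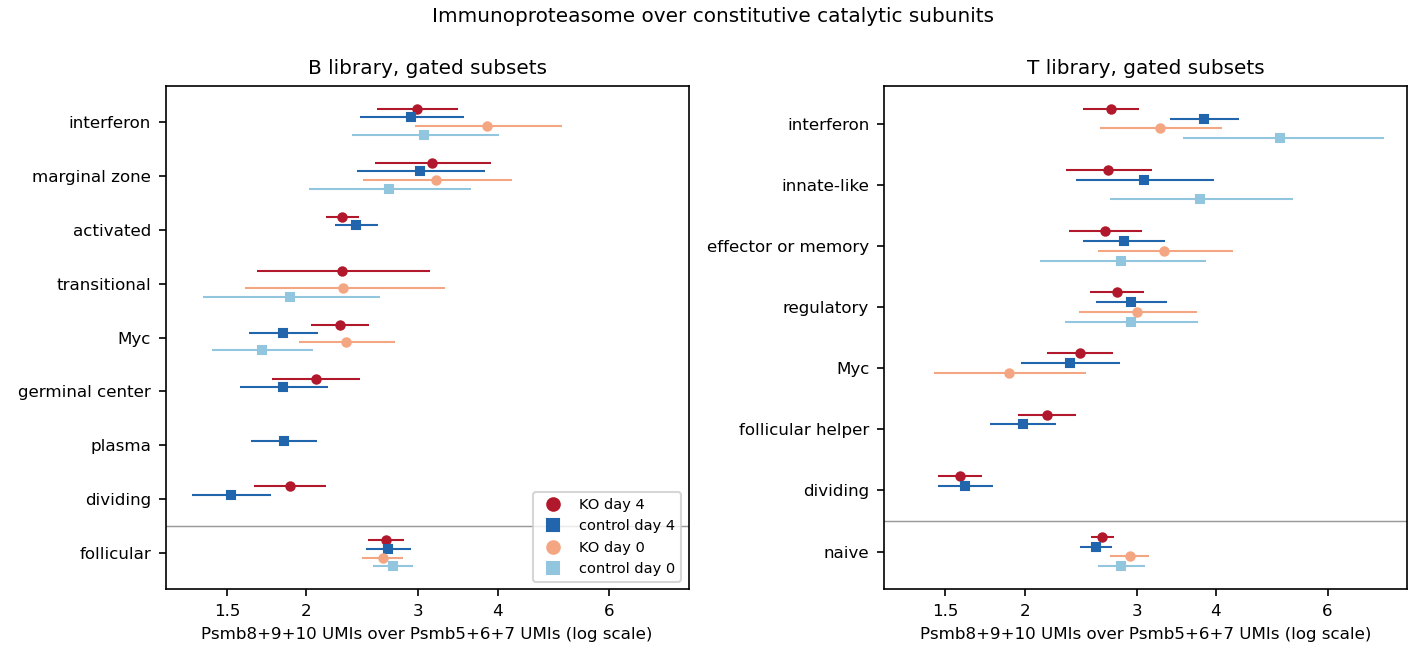
Ratio of immunoproteasome UMIs (Psmb8, Psmb9 and Psmb10) to constitutive catalytic UMIs (Psmb5, Psmb6 and Psmb7), on the horizontal axis, by subset and pool, with 95% intervals of counting error. Dividing T and dividing B cells lie between 1.52 and 1.88, and interferon-gated T cells of control day 0 are highest, at 5.05.

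Across 22 subsets and lineages, 28 members had at least 20 UMIs in each, and their log2 CPM was compared with the sum of the other members, as a description over points that share libraries and depth. Psma3 and Psma2 (r = 0.95 each) and Psmd6 (r = 0.94) followed the others most closely. Psmb5 and Psmb7 were at 0.92 and 0.90, Psmb9 at 0.67, Psmb8 at 0.64 and Psme2 at 0.31. The lowest were Psmg4 (−0.33), Psme1 (−0.12) and Psmb10 (−0.06). Psme1 was lowest in plasma-gated cells at 237 CPM over all pools and highest in interferon-gated B cells at 562 CPM, and Psmb10 ran between 88.0 CPM in plasma-gated and 201 CPM in innate-like T cells.

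Day 4 was compared with day 0 over all lineage cells of each genotype. In B cells the sum was 5403 CPM on day 4 against 5107 CPM on day 0 in KO mice, a ratio of 1.06 (1.04 to 1.07), and 5543 against 4904 CPM in control mice, a ratio of 1.13 (1.11 to 1.15). Of 47 members, 2 were called higher and 0 lower in KO B cells (8.14% of all genes higher, 9.55% lower), and 10 higher and 0 lower in control B cells (9.45% and 20.8%). Psmg1 was called in both, at 1.31 in KO and 1.37 in control. The other called KO gene was Psmd3 at 1.26, and control B cells were led by Psmc3ip at 1.88, Psmd7 at 1.36 and Psma7 at 1.33. In T cells the sum was 5423 against 4714 CPM in KO mice and 5354 against 4667 CPM in control mice, ratios of 1.15 (1.14 to 1.17) and 1.15 (1.13 to 1.17). There 12 of 47 members were called higher and 0 lower in KO mice (12.8% and 5.8% of all genes), and 7 of 46 higher and 1 lower in control mice (14.3% and 11.4%). The share of members called higher was below that of all genes in KO B cells and near it in control T cells. It was above that of all genes in control B and KO T cells.

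Psmb7 was among those called higher in both T cell comparisons, at 1.36 in KO and 1.33 in control, and so was Psma4 at 1.32 and 1.39. Psmb5 was at 1.40 and the lid gene Psmd13 at 1.41 in control T cells. The constitutive catalytic sum had ratios of 1.248 in KO and 1.26 in control T cells and of 1.09 and 1.16 in B cells. The immunoproteasome sum had ratios of 1.07 (1.04 to 1.10) in KO and 1.09 (1.04 to 1.13) in control T cells, and of 1.003 (0.969 to 1.04) in KO and 1.06 (1.02 to 1.09) in control B cells. In all 4 comparisons the immunoproteasome ratio was below the constitutive one. Psmd5, a chaperone of base assembly, had the lowest day ratio of the members in all 4, at 0.868 in KO and 0.804 in control B cells and 0.845 in KO and 0.737 in control T cells, of which only the last met the threshold.

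Within follicular and marginal zone B cells the day ratio was smaller. In follicular B cells the sum on day 4 was 0.968 (0.948 to 0.989) of day 0 in KO and 0.975 (0.953 to 0.997) in control mice, and in marginal zone B cells 0.962 in both. With the mix of subsets held equal on both days, the ratio was 0.985 in KO and 0.989 in control B cells. Over the subsets found on both days together, day 4 was thus slightly below day 0. These averages lay above the follicular and marginal zone ratios, so other shared subsets had higher ratios. The subsets found on both days covered 56.4% of KO and 53.6% of control UMIs on day 4, as the activated, germinal center and dividing gates held 20 cells in day 4 pools only. In T cells day 4 stayed above day 0, at 1.08 in KO and 1.04 in control mice with an equal mix. Naive T cells stood at 1.08 (1.06 to 1.10) in KO and 1.03 (1.01 to 1.05) in control mice. Effector or memory T cells had ratios of 1.23 (1.17 to 1.30) in KO and 1.07 (0.998 to 1.14) in control mice.

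**Figure D5:**
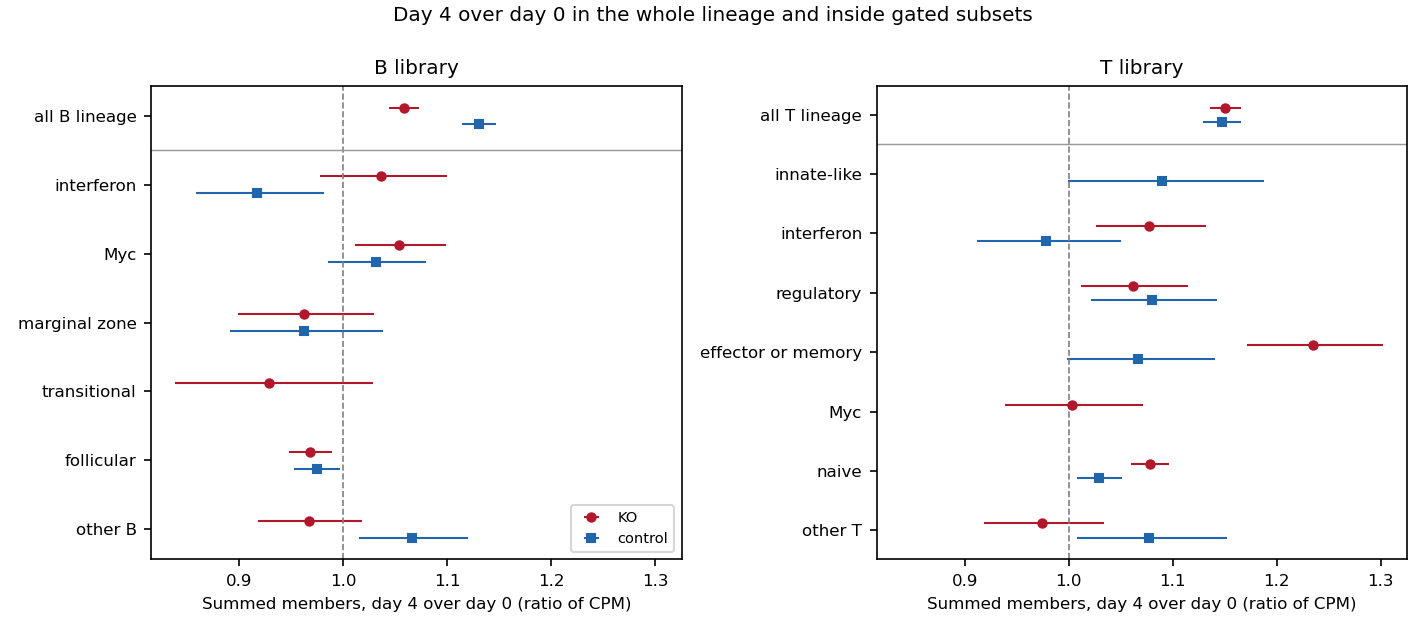
Day 4 over day 0 ratio of the summed level of the 49 proteasome genes (horizontal axis) over all lineage cells (top row) and inside gated subsets with at least 20 cells on both days, for KO and control pools, with 95% intervals of counting error. All B lineage cells lie at 1.06 and 1.13 and follicular B cells at 0.968 and 0.975, while naive T cells lie at 1.08 and 1.03.

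KO and control pools differed little. Summed levels were 5403 CPM in KO against 5543 CPM in control B cells on day 4 (0.975, 0.964 to 0.986) and 5107 against 4904 CPM on day 0 (1.04, 1.02 to 1.06). In T cells the ratios were 1.01 on day 4 (1.003 to 1.02) and 1.01 on day 0 (0.992 to 1.03). No member was called higher in any of these comparisons, and 1 was called lower, Psmc3ip at 0.649 in day 4 B cells. The background there was 5.86% of genes higher and 4.56% lower, and in the others 4.44% and 6.44% (B cells, day 0), 3.81% and 4.42% (T cells, day 4) and 5.16% and 6.46% (T cells, day 0). The extremes among proteasome subunits were Psmd7 at 0.808 in day 4 B cells, Psmc2 at 0.812 in day 0 B cells and Psmg3 at 0.803 in day 0 T cells, with Psmd1 at 1.18 in day 0 T cells as the highest. The direction of the B cell difference on day 4 was not stable, at 1.001 with an equal mix of subsets.

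Within subsets, germinal center B cells of KO mice had 0.965 (0.920 to 1.01) of the control sum. The KO over control ratio was 1.05 (1.04 to 1.07) in naive and 1.10 (1.06 to 1.15) in effector or memory T cells on day 4. In interferon-gated T cells the immunoproteasome sum was 973 CPM in KO against 1116 CPM in control mice on day 4 (0.872, 0.808 to 0.942), and 949 against 1213 CPM on day 0 (0.782, 0.654 to 0.937). Both days had the same direction, from separate pools of 1 library. The day 0 values rest on 64 KO and 27 control cells, and this is 1 of many comparisons of gene groups within subsets. With 1 pool a group, a difference between genotypes and one between pools cannot be told apart.

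Between lineages, B cells had 5239 CPM against 5039 CPM in T cells as means over pools, a ratio of 1.04 that lay between 0.996 and 1.08 in the 4 pools. Of 47 members 8 were called higher in B cells and 3 lower, where 35% of all genes were higher and 25.2% lower. Both shares of members were below those of all genes. Psme2 had the lowest ratio, as it averaged 247 CPM in B cells against 391 CPM in T cells (0.631). In the 4 pools, it was at 254, 252, 250 and 232 CPM in B cells of KO day 4, control day 4, KO day 0 and control day 0, against 437, 421, 362 and 347 CPM in T cells, with no overlap. The alpha ring gene Psma1 was highest of the subunits on the other side, at 117 CPM in B cells against 77.8 CPM in T cells (1.51), followed by the ATPase gene Psmc4 at 1.43. Since each lineage had its own library, lineage and library cannot be told apart.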

How the data were processed

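UMI counts per gene and cell were deposited for 2 single-cell 5′ libraries, each with 4 hashtags; per the submitters' processing notes they were made with Cell Ranger 5.0.0 on mm10. Cells under 200 genes or over 10% mitochondrial UMIs were removed from the deposited counts, which left 6218 of 6339 in the B and 9196 of 9307 in the T library. HTODemux (Seurat 5.3.0, R 4.3.3, positive quantile 0.99) gave 5477 B and 7636 T library cells with 1 hashtag; 568 and 1007 cells with several were left out as doublets, and 173 and 553 had none. No further doublet caller was run. The B and T lineage cells among them numbered 5239 and 7308.

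Cells were gated by marker genes in a fixed order, and UMIs were summed per pool and subset and scaled to CPM (Python 3.11.15, numpy 2.4.6, scipy 1.17.1, pandas 2.3.3). Subset ratios average pools with at least 20 cells in both subsets. Intervals are exact Poisson for levels and conditional binomial for ratios, from UMIs summed over pools where a subset ratio is given, at 95%. They were run on simulated Poisson counts only. Such counts hold no spread between cells or mice, so this does not show that the intervals cover that spread. Named genes are the 6 catalytic genes, Psme1 to Psme4, the 3 highest and 3 lowest members with at least 100 UMIs in each main comparison, and the 3 highest and lowest correlations; others named were chosen after their values were seen. The pathway list held 18 genes and the neighbour list 7. Members, lists and gates were chosen with earlier results of these data known. The marker Mx1 was not among the features used. Promoter windows came from RefSeq (GRCm38.p6) and gene positions from GENCODE vM21. Protein sequences were not analysed here. Some genes of the lists are not reported here.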

Additional observations from a re-analysis of the deposited data

How the results depend on the processing

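Over all results and alternative settings, 108 values kept their direction and size, 46 moved and 4 reversed; the cause was not tested. The day ratio of B cells reversed with the subset mix held equal, to 0.985 in KO and 0.989 in control mice, and KO over control in day 4 B cells reversed to 1.001 with that mix and to 1.014 without the 1% deepest cells. An equal mix gave 1.076 (KO) and 1.038 (control) for the day ratio of T cells, 1.034 for day 4 T cells and 1.014 for day 0 B cells of KO over control mice. Centred on the median gene, the day ratios were 1.077 in KO and 1.211 in control B cells (18 members called) and 1.113 in KO T cells (3 called). KO over control was then 0.947 in day 4 B cells (2 called), 1.060 in day 0 B cells and 1.029 in day 0 T cells, and dividing and helper T cells stood at 1.511 and 1.303. With totals that leave out receptor, ribosomal and mitochondrial genes, the day ratio was 1.171 in control B and 1.113 in KO T cells, KO over control was 0.953 in day 4 B and 1.033 in day 0 T cells, and the subset ratios were 1.544 for germinal center B, 1.344 for dividing T and 1.270 for helper T cells. Without the 1% deepest cells the day ratio was 1.033 in KO and 1.060 in control B cells and 1.132 in KO and 1.118 in control T cells, and the dividing T ratio was 1.656; no germinal center pool then kept 20 cells. Gates on cells thinned to 1500 UMIs gave 1.095 for the day ratio of control B cells, 0.991 for KO over control in day 4 B cells, 1.066 for activated B and 1.576 for dividing T cells, and no value for germinal center cells. All cells of a pool gave a day ratio of 1.112 in control B cells. With 1 more marker in the gate, germinal center cells were at 1.940 and activated cells at 1.133. Against the tenth of the comparison cells with the most UMIs, an alternative added after seeing the data, activated B cells were at 1.088, dividing T at 1.624 and helper T cells at 1.449. At a ratio of 1.5 for a call, the day comparisons called 0 members in KO B, 1 in control B, 0 in KO T and 0 in control T cells, and Myc-gated and activated B cells 1 and 0. With no UMI minimum, KO over control called 2 members in day 4 B and 2 in day 4 T cells, and activated B cells 5. Leaving out 1 pool turned no subset ratio. No paired analysis was possible because each group is 1 pool and the samples carry no shared replicate numbers. Depth limits members with few UMIs, such as Psme2b and Psmc3ip, and subsets of about 20 cells a pool.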

Other observations

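Cells outside both lineages also carried proteasome genes. Myeloid or dendritic cells of the B library, 146 over the 4 pools, had a summed level of 6164 CPM in KO day 4, 5823 CPM in control day 4, 6993 CPM in KO day 0 and 5922 CPM in control day 0, the last from 19 cells. Each pool lay above the follicular B cells of the same pool, which ranged from 4711 to 5014 CPM. The 50 such cells of the T library had 5922 CPM over all pools. B1-gated B cells, 28 over all pools, had 5521 CPM.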
